A study of Zea mays with 18 samples.

Results

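The phytochrome genes of maize were examined in the F1 hybrid An'nong 591 (CB25 × CM1) under control and heat conditions. The family comprised 6 of the 39471 genes in the deposited table, chosen by gene ID: phyA1 (GRMZM2G157727), phyA2 (GRMZM2G181028), phyB1 (GRMZM2G124532), phyB2 (GRMZM2G092174), phyC1 (GRMZM2G057935) and phyC2 (GRMZM2G129889). Among the synonyms in RefSeq (Zm-B73-REFERENCE-NAM-5.0, whose coordinates were not used) 4 of the IDs were found, and the names phyA1 and phyC1 come from the member list. Control seedlings of the hybrid (CF1) were kept at 28 °C by day and 23 °C by night, and treated seedlings (F1) at 42 °C and 35 °C for 2 d. The greenhouse had 16 h of light and 8 h of dark. The hour of harvest is not given in the sources used here. Each group had 3 biological replicates, and each library was made from poly(A) RNA of the third leaf. The reads carry the alleles of both parents but were aligned to the B73 genome. The parental lines were not analysed here.

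Phytochromes are the red and far-red light receptors of plants. Each is an apoprotein that binds a linear tetrapyrrole, phytochromobilin, and switches between an inactive red-absorbing and an active far-red-absorbing form. The active form moves to the nucleus, where it acts on transcription factors of the PIF class and on the COP1 ubiquitin ligase, and so controls de-etiolation, shade avoidance and flowering. Grasses have 3 types. The phyA protein is unstable in light and mediates responses to far-red light, phyB is the main receptor of red light and of shade, and phyC acts largely together with phyB. In Arabidopsis, the active form of phyB also reverts faster when it is warm, which makes that protein a temperature sensor. Maize carries 2 copies of each type from an ancient genome duplication.

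The depth of the libraries was 12266758 to 14643512 counts on genes. FPKM, the count scaled by the exonic length of the gene and by the library total, is relative to all other transcripts of a library. The TMM factors of edgeR, which rescale these totals on the assumption that most genes do not differ, were 0.734 to 0.771 in CF1 and 1.3 to 1.33 in F1. A level in F1 relative to CF1 is therefore higher on deposited FPKM than after TMM scaling. Over the 20621 expressed genes (mean FPKM of at least 1 in either group), the median log2 fold change was 0.05 with TMM factors and 0.85 with library totals. With TMM factors 71.3% of these genes still differed at an FDR no higher than 0.05, so the assumption is not shown to be met here. As a check of the labels, the heat shock chaperone gene hsp101 (GRMZM2G360681) had an FPKM of 0.98 to 1.52 in CF1 and 240.91 to 295.44 in F1. The 5 leaf markers examined, of mesophyll (pep1, ppdk1) and bundle sheath (me3, ssu1, ssu2), had a summed FPKM of 24342 to 25437 in CF1. The sum was 6458 to 7875 in F1, and all 5 were down-regulated. The seed storage gene zp16 had 0 counts in each library. In bulk leaf, fewer cells of a type and less RNA per cell cannot be told apart, and the part of the leaf marker decrease in the values below was not tested.

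All 6 phytochrome genes were expressed in the hybrid, and the make-up of the family differed between the groups. The genes phyA2 and phyC2 were up-regulated in F1, phyA2 by 6.58-fold and phyC2 by 2.03-fold, although the call of phyC2 ended when replicate 1 of CF1 was left out. In each of the 3 pairs the ratio of the copy numbered 2 to the copy numbered 1 was higher in every F1 library than in any CF1 library. In CF1 the highest level was that of phyC1, and in F1 it was that of phyA2. Up- or down-regulated here means a 2-fold or larger difference with an FDR no higher than 0.05 by edgeR's quasi-likelihood test with TMM factors, adjusted over all expressed genes by the Benjamini-Hochberg method. By this rule 2 of the 6 members were up-regulated, where 24.1% of all expressed genes were and 44.0% were called in either direction. None was down-regulated, where 19.9% of all expressed genes were, although 2 members were lower in F1 at an unadjusted p under 0.05. DESeq2's Wald test gave the same numbers, 2 up, 0 down and 2 lower at an unadjusted p under 0.05. At the FDR threshold alone, without regard to the fold change, 4 members were higher and 2 lower, whereas 36.7% of all expressed genes were higher, 34.6% lower and 71.3% either. The median log2 fold change of the members was 0.63. After TMM scaling, each F1 library was above each CF1 library for 4 members (39.1% of all expressed genes) and below each for 2 (36.0%), and 75.2% of all expressed genes had no overlap. On deposited FPKM each was above for 5 members (64.3%) and below for none (16.2%), and 80.5% of all expressed genes had no overlap. With library totals in the test, 4 members were called up (45.0%) and none down (9.21%). These counts describe the family and do not set it apart from other genes.

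**Figure D1:**
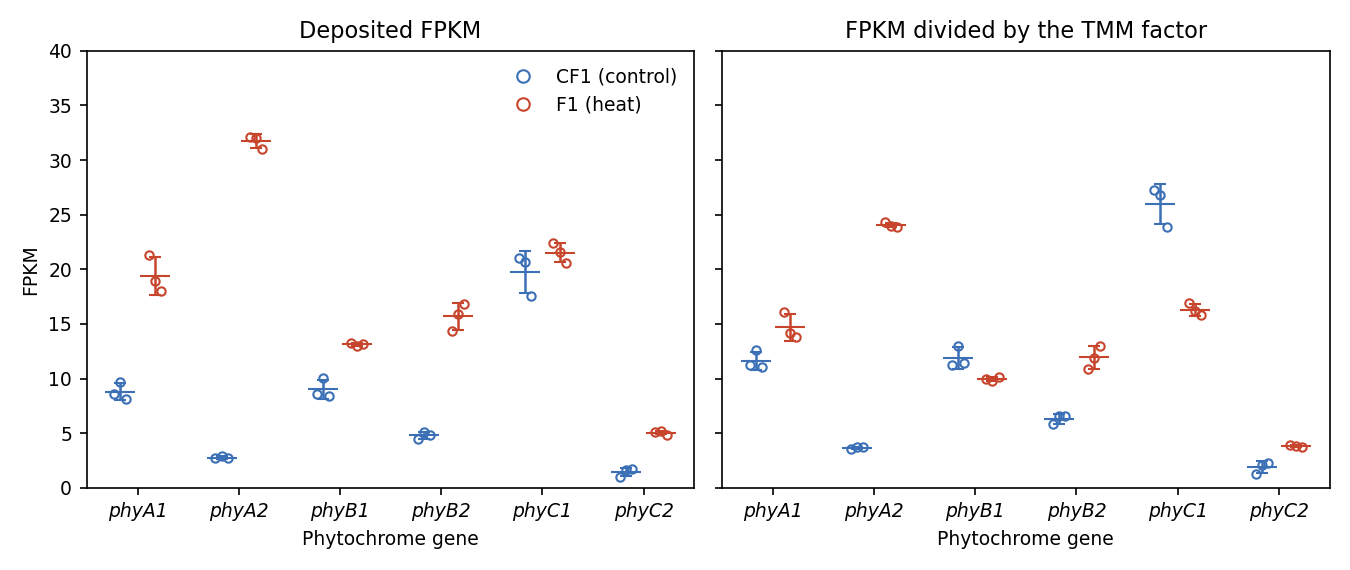
FPKM of the 6 phytochrome genes in each library (open circles), with the mean and SD of the 3 libraries of CF1 (blue) and F1 (red), as deposited (left) and divided by the TMM factor of the library (right). The gene phyA2 went from 2.77 to 31.7 FPKM as deposited, phyB1 was higher in F1 as deposited but lower after TMM scaling, and phyC1 overlapped as deposited but was lower after TMM scaling.

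The phyA pair encodes the light-labile receptor of far-red light. The FPKM of phyA2 was 2.71, 2.89 and 2.72 in the CF1 libraries and 32.13, 32.05 and 31.04 in the F1 libraries. The replicates of each group were close together, and all F1 libraries lay far above all CF1 libraries. These levels rest on 131 to 152 counts per library in CF1 and 1748 to 1845 in F1. The log2 fold change of phyA2 was 2.72 (standard error 0.10, adjusted p = 2.88e-08 by edgeR's quasi-likelihood test), higher than that of 93.8% of the expressed genes. The call held under each of the 14 alternative settings. The other copy, phyA1, had an FPKM of 8.61, 9.71 and 8.12 in CF1 and 21.29, 18.91 and 17.97 in F1. Its groups did not overlap either, as deposited or after TMM scaling. On the log2 scale phyA1 was higher by 0.34 (standard error 0.11, adjusted p = 0.0167 by the same test), under the fold change threshold. Under library totals this became 1.14, which passed. With replicate 1 of CF1 left out its adjusted p was 0.0657, and with replicate 1 of F1 left out 0.0776.

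The phyB pair encodes the main receptor of red light. For phyB2 the FPKM was 4.47, 5.07 and 4.84 in CF1 and 14.39, 15.88 and 16.85 in F1. Each F1 library was above each CF1 library on both scales. The log2 fold change of phyB2 was 0.91 (standard error 0.11, adjusted p = 5.02e-05 by edgeR's quasi-likelihood test), a 1.89-fold higher level that stayed just under the fold change threshold. With library totals it was 1.71 and passed. The phyB1 FPKM was 8.61, 10.04 and 8.39 in CF1 and 13.27, 13.01 and 13.16 in F1, so that as deposited the F1 libraries were the higher ones. After TMM scaling the order turned, with 11.2, 13.0 and 11.4 in CF1 and 10, 9.76 and 10.1 in F1. For phyB1 the log2 fold change was -0.25 with TMM factors (standard error 0.10, adjusted p = 0.045 by the same test) and 0.54 with library totals. Its direction thus depends on the scaling. The adjusted p was above the threshold in 10 of the 14 alternatives, 5 of which each left out 1 library.

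The phyC pair encodes a receptor that in grasses acts together with phyB. The most abundant phytochrome transcript of the control leaf was that of phyC1, with an FPKM of 21.0, 20.68 and 17.56 in CF1 and of 22.37, 21.58 and 20.6 in F1. These ranges overlap as deposited. After TMM scaling they do not, with 27.3, 26.8 and 23.9 in CF1 and 16.9, 16.2 and 15.8 in F1. For phyC1 the log2 fold change was -0.67 with TMM factors (standard error 0.10, adjusted p = 1.78e-04 by edgeR's quasi-likelihood test), a 1.59-fold lower level that was not called, and 0.12 with library totals. Thus phyC1 was lower in F1 relative to the typical gene, but not on deposited FPKM.

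The gene phyC2 had the lowest level of the family in both groups, with an FPKM of 0.99, 1.62 and 1.7 in CF1 and of 5.14, 5.16 and 4.87 in F1. Its counts were 57, 86 and 84 in CF1 and 301, 304 and 281 in F1. The groups did not overlap, but replicate 1 of CF1 was well below the other two. The log2 fold change of phyC2 was 1.02 (standard error 0.20, adjusted p = 0.0011 by edgeR's quasi-likelihood test). This is at the fold change threshold, and without replicate 1 of CF1 it was 0.80, which is not called. RefSeq lists this ID together with GRMZM2G129913 for each of 2 genes, PHYC and Spo11-1, the latter a gene of meiotic recombination. GRMZM2G129913 had 68, 49 and 33 counts in CF1 and 38, 46 and 32 in F1, so its highest count was in the library where phyC2 was lowest. Its lowest count in CF1 was in replicate 3, while that group's highest phyC2 count was in replicate 2. Counts are not scaled by depth, and the FPKM of GRMZM2G129913 was 2.35, 1.83 and 1.32 in CF1. By FPKM its lowest and the highest phyC2 value of CF1 were both in replicate 3. In F1 its FPKM was 1.28, 1.55 and 1.1, and there both models were highest in replicate 2 and lowest in replicate 3. The library kit does not mark strand, and whether reads of either model were given to the other was not tested. The 2 models were also counted together, which was decided on only with the values in view, and then had 125, 135 and 117 counts in CF1 and 339, 350 and 313 in F1. On the log2 scale the difference was then 0.48 (standard error 0.13, adjusted p = 0.00646 by the same test), and the gene was not called.

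**Figure D2:**
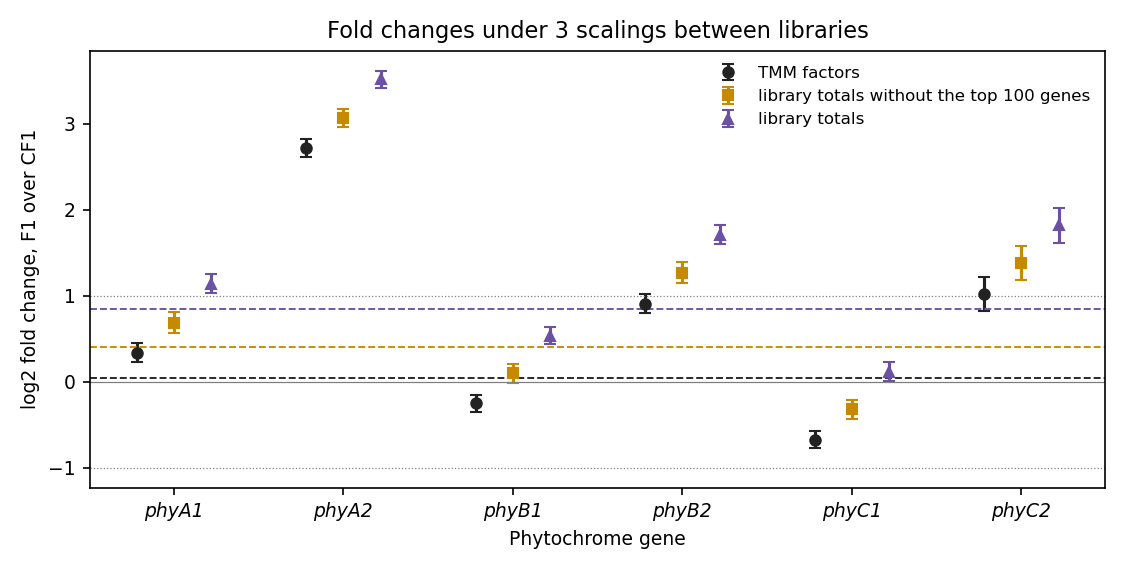
Log2 fold change of each phytochrome gene in F1 over CF1 (symbols, with the standard error) under 3 scalings between libraries. Dashed lines show the median of all expressed genes under the same scaling (0.05, 0.41 and 0.85), and dotted lines the 2-fold threshold. All members shift together, so that phyB1 runs from -0.25 to 0.54 and phyC1 from -0.67 to 0.12, while the distance of each to the dashed line stays the same.

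The distance of a member to the median of all expressed genes does not depend on the scaling in this way. It was 2.66 on the log2 scale for phyA2 with TMM factors and also with library totals. It was 0.29 for phyA1, -0.31 for phyB1, 0.86 for phyB2 and -0.73 for phyC1, again equal under both scalings. For phyC2 it was 0.96 with TMM factors and 0.97 with library totals. That they are equal follows from the arithmetic, since a scaling shifts all genes alike. By these distances phyA2, phyC2, phyB2 and phyA1 lay above the typical expressed gene, and phyB1 and phyC1 below. Least far from it were phyA1 and phyB1, with log2 fold changes above those of 58.5% and 40.2% of expressed genes. Their adjusted p was above the threshold in 2 and 10 of the 14 alternatives. The values of phyC2 and phyB2 lie within the standard error of phyC2, and with GRMZM2G129913 counted in phyC2 was at 0.42, below phyB2. The sum over the family did depend on the scaling. The FPKM of the 6 genes summed to 46.6 ± 3.34 in CF1 and 107 ± 2.05 in F1 (SD, n = 3) as deposited. The ratio was 2.29-fold, with a p of 0.1 by a two-sided exact permutation test, which cannot give a smaller p for 3 libraries against 3. After TMM scaling the sums were 61.4 ± 3.11 and 80.8 ± 1.11 (SD, n = 3), a 1.32-fold ratio with the same exact p of 0.1.

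The ratio of the copies of a pair within a library does not depend on any scaling between libraries. The ratio of phyA2 to phyA1 was 0.315, 0.298 and 0.335 in CF1 and 1.51, 1.69 and 1.73 in F1. Thus phyA1 was the more abundant copy in each control library and phyA2 in each heated library. The mean log2 ratio was higher in F1 by 2.38 (standard error 0.08), which is 5.2-fold. The ratio of phyB2 to phyB1 was 0.519, 0.505 and 0.577 in CF1 and 1.08, 1.22 and 1.28 in F1, so that the order of this pair by FPKM turned as well. The order by counts did not turn, as the exonic length is 5594 bases for phyB1 and 3690 for phyB2. In the F1 libraries phyB1 had 1081, 1066 and 1055 counts and phyB2 had 773, 858 and 891. The mean log2 FPKM ratio of the phyB pair was higher in F1 by 1.16 (standard error 0.09), or 2.24-fold. The ratio of phyC2 to phyC1 was 0.0471, 0.0783 and 0.0968 in CF1 and 0.23, 0.239 and 0.236 in F1. There phyC1 stayed the more abundant copy in each library, and the mean log2 ratio was higher in F1 by 1.73 (standard error 0.31), or 3.31-fold. With GRMZM2G129913 added to phyC2, the difference was 1.15. The difference between groups exceeded the spread between replicates for each of the 3 pairs, with no overlap (exact permutation p = 0.1 for each pair, two-sided, and also 0.1 after adjustment over the 3 pairs). This p is the smallest that the test can give. Ratios of other gene pairs were not computed for comparison, and 80.5% of single expressed genes had no overlap on deposited FPKM. The copies have similar sequences, and how reads that fit both copies were counted was not examined here.

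**Figure D3:**
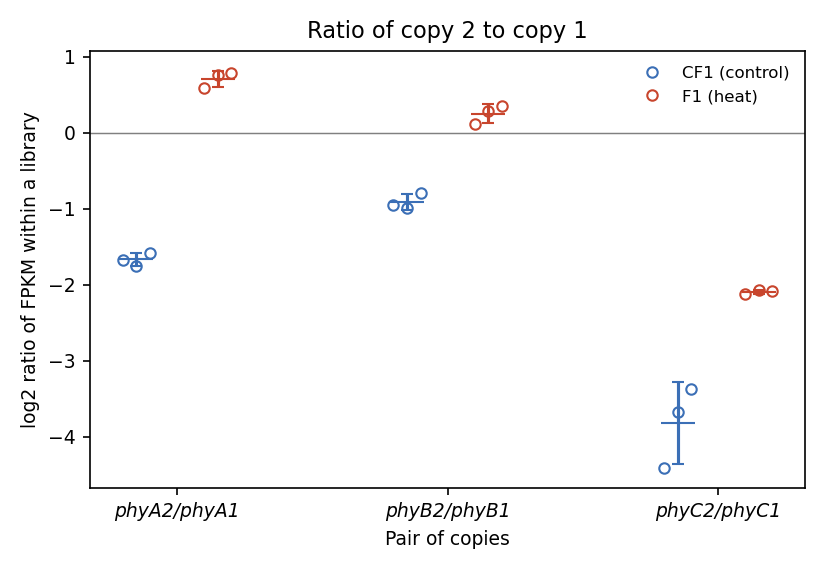
Log2 ratio of the FPKM of copy 2 to that of copy 1 within each library (open circles), with the mean and SD of the 3 libraries of CF1 (blue) and F1 (red). Values above 0 mean that copy 2 had the higher FPKM, which held for phyA and phyB in each F1 library and in no CF1 library. In counts, which are not per length, phyB1 was above phyB2 in each F1 library.

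The order of the levels by deposited FPKM, which is per length and can be compared between genes, was phyC1 (19.7 ± 1.9, SD, n = 3), phyB1 (9.01 ± 0.896), phyA1 (8.81 ± 0.814), phyB2 (4.79 ± 0.303), phyA2 (2.77 ± 0.101) and phyC2 (1.44 ± 0.389) in CF1. The ranges of phyB1 and phyA1 overlapped, and all other neighbours were apart. In F1 the order was phyA2 (31.7 ± 0.608, SD, n = 3), phyC1 (21.5 ± 0.887), phyA1 (19.4 ± 1.71), phyB2 (15.7 ± 1.24), phyB1 (13.1 ± 0.131) and phyC2 (5.06 ± 0.162). The ranges of phyC1 and phyA1 overlapped, although phyC1 was the higher one within each of the 3 libraries. This order rests on the exonic lengths, 4151 bases for phyC1 and 5438 for phyA1. In counts phyA1 was above phyC1 in each F1 library, with 1686, 1506 and 1400 against 1352, 1312 and 1225. Among all expressed genes, phyA2 had a higher level than 34% of genes in CF1 and than 83.5% in F1, whereas phyC1 stood above 81.9% and 74.7%.

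Expressed as a share of the summed FPKM of the family, phyA2 took 5.97 ± 0.272% in CF1 and 29.8 ± 0.25% in F1 (SD, n = 3). The share of phyC1 was 42.4 ± 2.53% in CF1 and 20.2 ± 0.446% in F1, and that of phyB1 was 19.3 ± 0.758% and 12.3 ± 0.22% (SD, n = 3). The change was -22.2 percentage points for phyC1 and 23.8 points for phyA2. The shares of a library add up to the whole, so they do not change independently of one another. The deposited FPKM of phyC1 was 19.7 in CF1 and 21.5 in F1 with overlapping ranges, and that of phyB1 was 9.01 and 13.1. After TMM scaling both were lower in F1 without overlap, phyC1 with 26 in CF1 and 16.3 in F1, phyB1 with 11.9 and 9.97. The share of phyB2 was 10.3 ± 0.782% and 14.8 ± 1.44%, and that of phyC2 was 3.1 ± 0.903% and 4.75 ± 0.0907% (SD, n = 3). For these 5 genes the groups did not overlap (exact two-sided permutation test, p = 0.1 each, adjusted p = 0.12 over the 6 members). Shares within other families were not computed for comparison, and 80.5% of single expressed genes had no overlap on deposited FPKM. The share of phyA1 was 18.9 ± 0.451% and 18.2 ± 1.26% (SD, n = 3) with overlapping groups (exact p = 0.5, adjusted p = 0.5). By type, phyA transcripts went from 24.9% to 48% of the sum, phyB transcripts from 29.6% to 27.1% with overlapping groups, and phyC transcripts from 45.5% to 24.9%. The 3 copies numbered 2 together made up 19.4 ± 1.89% in CF1 and 49.3 ± 1.53% in F1 (SD, n = 3). Most of this difference of 29.9 points was that of phyA2 (23.8), with 4.44 from phyB2 and 1.65 from phyC2.

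**Figure D4:**
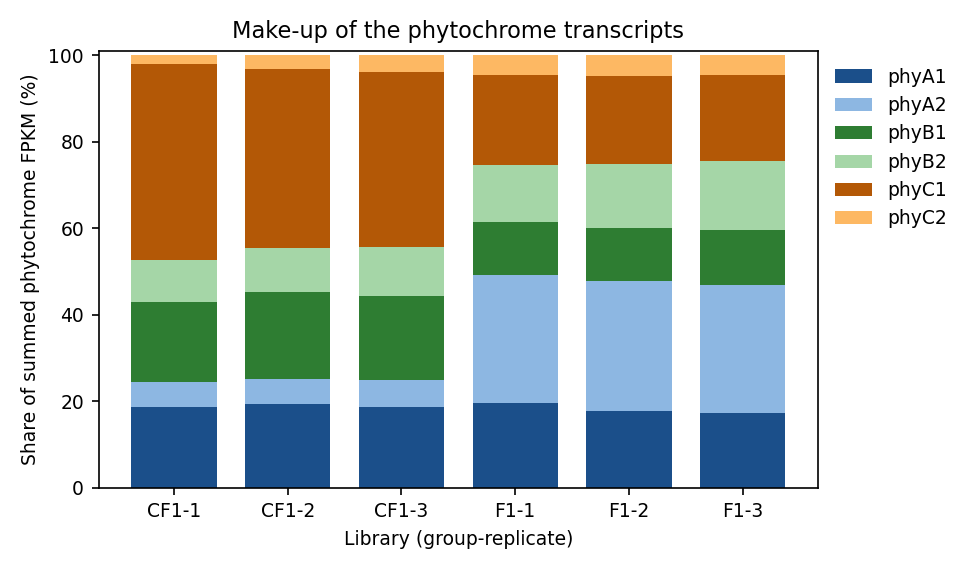
Share of each phytochrome gene in the summed phytochrome FPKM of each library, in percent, for the 3 libraries of CF1 (left) and of F1 (right). The largest segment is phyC1 in each CF1 library (40.5% to 45.3%) and phyA2 in each F1 library (29.6% to 30.1%).

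Other genes of light perception were taken by RefSeq symbol or synonym, which gave 6 genes for the 4 groups searched: chromophore synthesis, PIF factors, the COP1/SPA/DET1/HY5 group, for which no name matched, and other photoreceptors. Of the 5 that were expressed, 3 were down-regulated (19.9% of all expressed genes) and none was up-regulated (24.1%), with a median log2 fold change of -1.61. With library totals, 2 were called down (9.21% of all expressed genes) and 1 up (45.0%). The 3 genes down-regulated with TMM factors were matched only by the search words HO1, phot1 and nph1, which were added after the names had been seen. The expressed genes matched without them, elm1 and PIF5, were not called with TMM factors. For the count of 0, edgeR and DESeq2 each gave 0 genes that were higher at an unadjusted p under 0.05. The largest decrease was that of phot1 (GRMZM2G001457), a phototropin, which is a blue light receptor for phototropism and chloroplast movement. Its FPKM was 149.4, 152.01 and 122.29 in CF1 and 22.86, 16.2 and 13.15 in F1, with no overlap. On the log2 scale phot1 fell by 3.82 (standard error 0.20, adjusted p = 1.54e-07 by edgeR's quasi-likelihood test), and the log2 fold change was still -3.02 with library totals.

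In the synthesis of the phytochrome chromophore, heme oxygenase opens the heme ring to biliverdin, and phytochromobilin synthase reduces biliverdin. The more abundant gene named HO1 (GRMZM2G101004) had an FPKM of 54.92, 48.53 and 51.34 in CF1 and of 31.9, 29.97 and 26.41 in F1. The other gene named HO1 (GRMZM2G043277) had 7.91, 8.85 and 6.68 in CF1 and 2.45, 2.39 and 1.66 in F1. Both were thus lower in each heated library, on deposited FPKM as well. Their log2 fold changes were -1.61 (standard error 0.11, adjusted p = 7.52e-07) for GRMZM2G101004 and -2.65 (standard error 0.20, adjusted p = 1.27e-06) for GRMZM2G043277 by edgeR's quasi-likelihood test. With library totals that of GRMZM2G101004 was -0.81 and no longer called. The gene elm1 (GRMZM5G861678), which encodes phytochromobilin synthase, had an FPKM of 9.92, 8.01 and 7.46 in CF1 and of 17.27, 17.75 and 16.84 in F1. The difference on the log2 scale was 0.23 (standard error 0.13, adjusted p = 0.125 by the same test), which did not pass, and 1.03 with library totals, which did. PIF5 (GRMZM2G165042), a basic helix-loop-helix factor of the class that phytochromes bind, had overlapping FPKM of 18.69, 20.41 and 16.35 in CF1 and 16.56, 17.5 and 15.93 in F1. The difference on the log2 scale was -0.95 (standard error 0.11, adjusted p = 2.32e-05 by the same test), just short of the fold change threshold, and -0.15 with library totals. With replicate 3 of CF1 left out it was -1.01 (adjusted p = 1.60e-05), so that PIF5 was called and 4 of the 5 genes were down-regulated. PIF4 (GRMZM5G865967) was below the limit for expressed genes, with 7, 22 and 13 counts in CF1 and 3, 1 and 0 in F1.

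**Figure D5:**
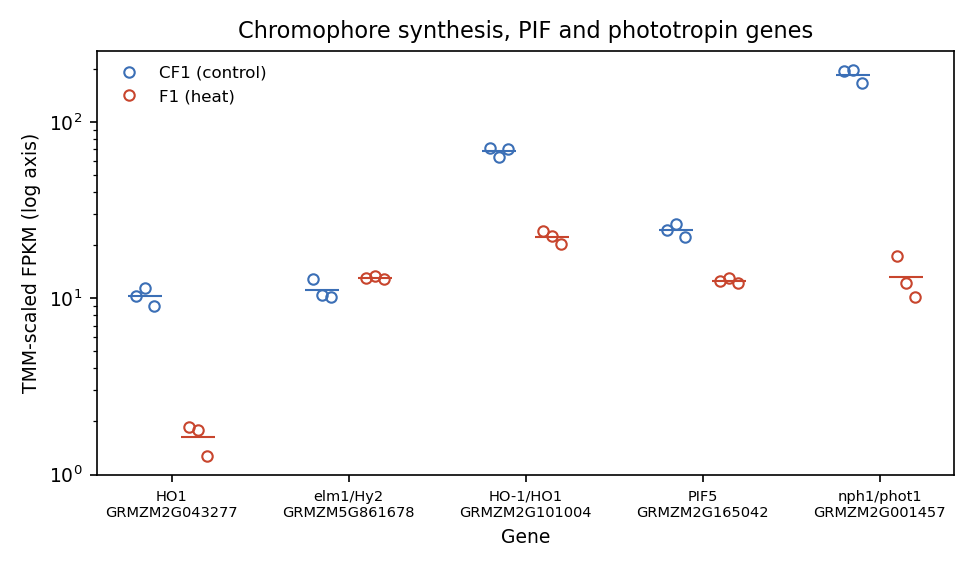
TMM-scaled FPKM on a log axis of the 5 expressed genes matched by name, per library (open circles), with the mean (bar) of the 3 libraries of CF1 (blue) and F1 (red). Both HO1 genes and phot1 lay lower in F1, also on deposited FPKM, while the groups of PIF5 overlapped on deposited FPKM. The level of elm1 was 10.2 to 12.9 in CF1 and 12.9 to 13.3 in F1. Before rounding each F1 library was above each CF1 library, narrowly here and more widely on deposited FPKM.

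For likeness of pattern, each member was compared with the 2035 expressed genes that carry an informative RefSeq name. The measure was the root mean square difference of log2(TMM-scaled FPKM + 1) over the 6 libraries, after each gene was centred on its own mean. The genes closest to phyA2 were abp1 (GRMZM2G116204) and nfc101 (GRMZM2G137965), both at 0.076. For phyB2 they were pk4 (0.05) and AKHSDH1 (0.054), and for phyC2 PHD16 (0.084) and Ann3 (0.095). For phyA1 they were BRK3 (0.043) and ocl3 (0.047), for phyB1 HSF29 (0.043) and Hox2b (0.047), and for phyC1 LAZ1-9 (0.045) and pglcat2 (0.057). With 2 groups of 3 libraries, this measure reflects mainly the size of the difference between the groups. The FPKM of nfc101 was 4.51 ± 0.142 in CF1 and 46 ± 2.84 in F1 (SD, n = 3), and that of abp1 was 12.2 ± 1.43 and 116 ± 1.67 (SD, n = 3). Their log2 fold changes were 2.55 and 2.45, against 2.72 for phyA2.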

How the data were processed

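RNA-Seq libraries of the hybrid, 3 per group, were analysed. The authors aligned clean reads to B73 RefGen_v3 with HISAT (2.0.1 in the submitters' processing notes) and counted them per gene with HTSeq (0.6.1). The deposited counts are raw. The deposited FPKM are counts divided by the deposited exonic length and the library total, and were recomputed from these for 100% of values (within 0.01 or 0.1%). A further 24 per-sample columns match no sample label and were not used.

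Genes whose FPKM averaged 1 or more in CF1, in F1 or in both were kept as expressed (20621 of 39471). Counts were tested with edgeR 4.0.16 (glmQLFit, TMM factors, R 4.3.3) and called at a 2-fold or larger difference with an FDR no higher than 0.05. Standard errors are the log2 fold change divided by the square root of F. The fit was tested on simulated data. The depth of a member ran from 57 to 1845 counts per library. Ratios and shares were compared by exact permutation tests, whose smallest p is 0.1. Alternatives used DESeq2 1.42.0, limma 3.58.1 (pseudocounts 1 and 0.1), other scalings, no filter, a replicate block and each library left out.

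Named genes were the 6 members, all genes of the light lists, which held under 5 measured genes each, the markers, and for each member the 2 genes of most similar pattern. The table of RefSeq names held no descriptions, so the lists were matched by symbol and synonym. The search words HO1, Hy2, phot1 and nph1 were added after these names had been seen. Members and lists were chosen with earlier results of these data known. Replicates differed by more than counting error, with a mean chi-square per gene of 9.574 to 25.78.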

Additional observations from a re-analysis of the deposited data

How the results depend on the processing

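Scaled to library totals alone, the log2 fold changes were 1.14 for phyA1 and 1.71 for phyB2, both then called, and turned to 0.54 for phyB1 and 0.12 for phyC1. Then 4 members and 1 light gene (elm1) were called up, against 2 and 0. The shift of all members equals that of the median gene. When the totals left out the 100 most counted genes, phyB2 was called (1.27) and phyB1 turned to 0.10. For phyC2 the value was 0.75 by limma on log2(TMM-scaled FPKM + 1), 0.48 with GRMZM2G129913 added (chosen after seeing the data), and 0.80 to 1.18 with each library left out in turn. The number of members called up was 1 by that limma test, 1 with the models counted together and 1 to 2 with a library left out, the 1 being without replicate 1 of CF1. The calls of phyA2, phot1 and GRMZM2G043277 held under each of their 14 alternatives, with phyA2 between 2.69 and 2.74 when a library was left out.

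The log2 ratios of FPKM + 1 were higher in F1 by 2.06 for phyA, 1.02 for phyB and 1.2 for phyC. Without a pseudocount, the log2 ratio of the phyC pair was higher by 1.15 with the models counted together, in place of 1.73. Leaving out a library gave 2.34 to 2.44, 1.11 to 1.23 and 1.43 to 1.95. As shares of the summed counts, which are not per length, the changes were 21.4 percentage points for phyA2, -7.86 for phyB1 and -19.2 for phyC1, and 0.0344 for phyA1 in place of -0.724. The log2 ratio of the summed FPKM was 1.19 as deposited, 0.40 after TMM scaling and 0.38 after median-of-ratios scaling. Across treatments, the labels' replicate numbers mark no stated pairs, and the deviations of same-numbered libraries correlated at -0.0159 to 0.0575. With the replicate number as a block, 8948 genes were called in place of 9065, and the log2 fold changes were 2.72 for phyA2 and 1.04 for phyC2, both still called. Among the members, the fewest counts in a library were 57, for phyC2 in replicate 1 of CF1.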
